A study of Mus musculus with 6 samples.

Results

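The genes described are those of the subunits of nuclear RNA polymerases I, II and III. They were taken as the array probes whose RefSeq accession maps to a protein-coding mouse symbol beginning with Polr1, Polr2 or Polr3 and a letter, with the brightest probe standing for each gene. The RefSeq table holds 28 such genes, of which 26 had a matched probe and 24 were bright enough to test, out of 14853 genes tested on the array. Of the tested genes 5 are Polr1, 11 are Polr2 and 8 are Polr3 genes. No probe matched Polr2a or Polr2d, which are not analysed here, and Polr3f was too dim to test.

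RNA polymerase I transcribes the large ribosomal RNA precursor in the nucleolus, RNA polymerase II transcribes messenger RNAs and many small nuclear RNAs, and RNA polymerase III transcribes transfer RNAs, 5S ribosomal RNA and other short RNAs. Each enzyme is built on a pair of large catalytic subunits. Smaller subunits are either particular to 1 enzyme, shared by polymerases I and III (Polr1c and Polr1d) or common to all 3 enzymes (Polr2e, Polr2f, Polr2h, Polr2k and Polr2l), so that a gene's name does not always tell which enzyme it serves. Growing and dividing cells, among them early erythroblasts in marrow, make much ribosomal and transfer RNA.

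The arrays measured total RNA of femoral bone marrow cells from male mice aged 10 weeks. All animals were of the erythropoietin-deficient anemia model ISAM on a mixed strain background, which lacks both alleles of the endogenous Epo gene and carries the Epo transgene line Tg458, so the controls are anemic too and no wild-type sample was used. The treated group was made of 3 samples collected 6 h after an intraperitoneal injection of recombinant human erythropoietin (rHuEPO) at 3000 U/kg. As controls served 1 untreated sample and 2 samples taken 6 h after phosphate-buffered saline (PBS). Whether replicates came from separate animals is not said in the labels, and p-values then reflect only how far these samples spread, which may be technical. In bulk marrow RNA, a change in the number of cells of a type and a change in RNA per cell cannot be told apart.

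Each sample was hybridised to 1 single-colour array, and precision is limited by how few arrays there are. On slide 1 were rHuEPO replicate 1 and the untreated sample, and the remaining 4 samples were on slide 2. The share of gene spots well above background was 48.6% to 50.5% on the control arrays and 46.2% to 46.6% on the rHuEPO arrays. Negative control spots had median processed signals of 3.74 to 4.03 on the control arrays and 4.73 to 5.51 on the rHuEPO arrays. The bearing of these splits on the differences below was not tested. Values below are log2 signals relative to the 75th percentile of the array, and each difference is the rHuEPO mean minus the control mean on that log2 scale, given with limma's standard error (SE) over 3 against 3 arrays. A level can be compared between arrays for 1 gene, but not between genes, because probes differ in how brightly they bind.

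The comparison asked how the polymerase genes stood 6 h after rHuEPO. None of the 24 tested genes passed limma's test with Benjamini-Hochberg adjustment over all genes, where 0.0673% of all genes passed, all of them higher. The smallest adjusted p by limma among the polymerase genes was 0.811. At an unadjusted p under 0.05 limma listed 2 of the 24 as higher and 0 as lower, Polr1e and Polr1b, against 2.44% and 2.51% of all genes in these directions. With slide as a block it listed 6 higher and 0 lower, against 5.62% and 5.69% of all genes, and again none passed after adjustment (smallest adjusted p = 0.294 by limma, where 0.0741% of all genes passed).

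The difference was above 0 for 20 of the 24 genes, against 47.3% of all genes. The median difference over the 24 was 0.20, beside -0.015 over all genes tested. By name, the median was 0.54 for the 5 Polr1 genes, all of them above 0, and 0.16 for the 11 Polr2 genes, all of them above 0. It was 0.0041 for the 8 Polr3 genes, of which 4 lay above 0 and 4 below. With the mean of a gene's tested probes in place of the brightest, the medians were 0.35 for Polr1, 0.16 for Polr2 and 0.12 for Polr3. The groups did not overlap, with rHuEPO the higher, for 4 of the 24 genes (Polr1e, Polr1b, Polr3d and Polr2c), and with rHuEPO the lower for 0. Over all genes these shares were 5.01% and 5.39%.

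**Figure D1:**
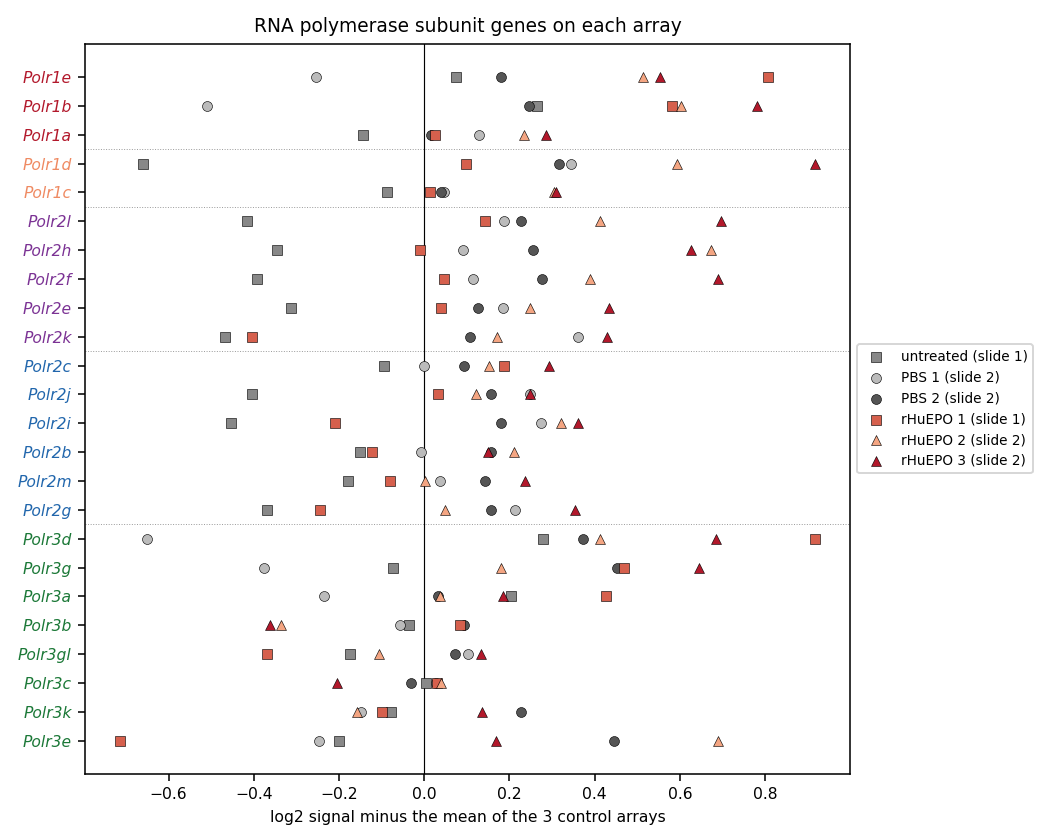
Each row is a tested polymerase gene, grouped by the enzymes it serves, and each symbol is 1 array, placed at its log2 signal minus the mean of the 3 control arrays. Red symbols (rHuEPO) lie right of all grey symbols (controls) for Polr1e, Polr1b, Polr2c and Polr3d, and squares mark the slide 1 arrays, which lie left of the slide 2 arrays of their group for most genes of the shared and polymerase II classes.

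Leaving the untreated array out as a control changes the control and the slide balance together, since rHuEPO replicate 1 then has no control on slide 1. Against the PBS samples alone, in a fit with 3 groups, 14 of the 24 differences were above 0, against 40.1% of all genes. The medians there were 0.21 for Polr1, 0.0031 for Polr2 and -0.047 for Polr3 genes, beside -0.059 over all genes. No polymerase gene passed limma's adjusted test there, where 0.0202% of all genes passed. Within slide 1, with 1 array against 1, the medians were 0.32, 0.28 and 0.073 for Polr1, Polr2 and Polr3, beside 0.0048 over all genes. Within slide 2, with 2 arrays against 2, they were 0.42, 0.12 and 0.081, beside -0.019 over all genes. A gene lay above its control within both slides for 18 of the 24, against 29.7% of all genes, and below within both for 2 of the 24, Polr3gl and Polr3k, against 32.1%. The genes above control within both slides were all 5 Polr1 genes, 10 of the 11 Polr2 genes and 3 of the 8 Polr3 genes.

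**Figure D2:**
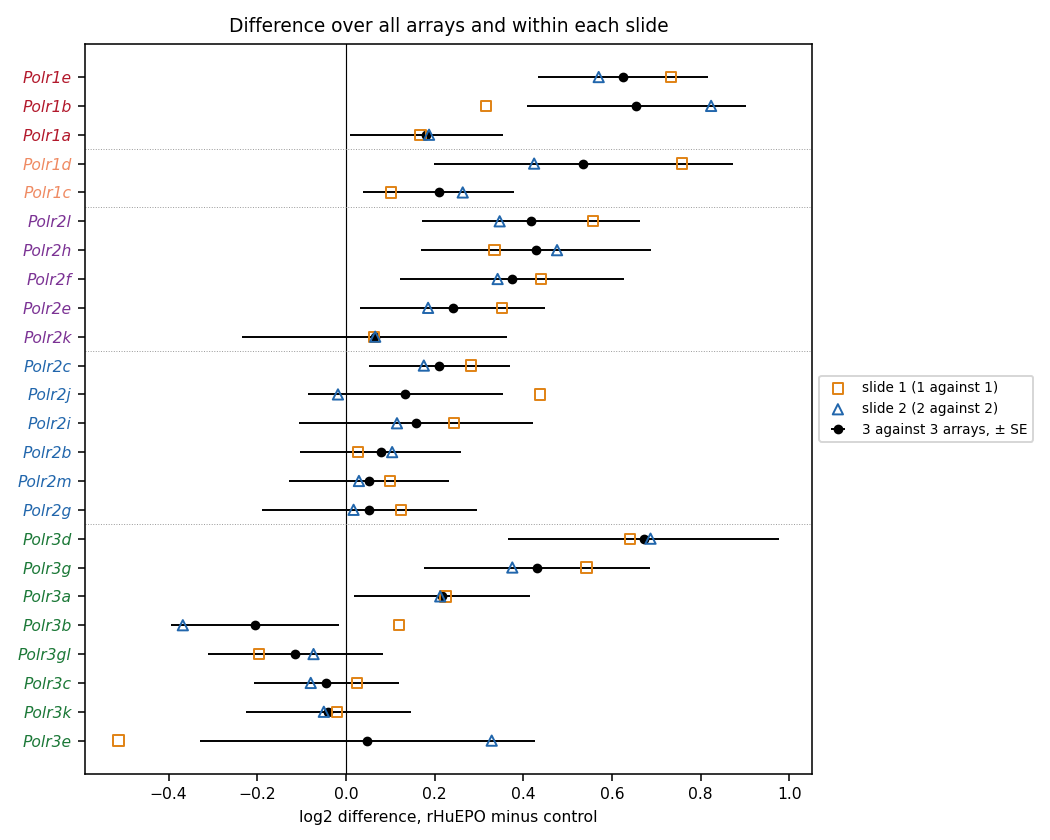
Black points are the log2 difference of each gene, rHuEPO minus control, over 3 against 3 arrays with bars of 1 SE, and open symbols are the same difference within slide 1 (orange squares) and slide 2 (blue triangles). The polymerase I genes Polr1e and Polr1b and the polymerase III gene Polr3d stand farthest right, at 0.62, 0.65 and 0.67. Polr2j, Polr3b, Polr3c and Polr3e have slides on opposite sides of 0.

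The smallest p values among the 24 were those of Polr1e and Polr1b, while Polr1a, also of polymerase I alone, ranked 14. Polr1e, the mouse PAF53 subunit that sits with Cd3eap at the enzyme's edge and takes part in initiation, read -0.61 on the untreated array and -0.93 and -0.50 on the PBS arrays, and 0.13, -0.17 and -0.13 on the rHuEPO arrays. The groups did not overlap. The difference was 0.62 ± 0.19 (SE, 3 against 3 arrays), 1.54-fold, with a limma adjusted p of 0.811. It was 0.73 within slide 1 and 0.57 within slide 2.

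Polr1b, the smaller of the pair of catalytic subunits, read -0.29 on the untreated array and -1.07 and -0.31 on the PBS arrays, and 0.024, 0.045 and 0.22 on the rHuEPO arrays. All rHuEPO arrays lay above the controls, and PBS replicate 1 lay far below the other control arrays. The difference was 0.65 ± 0.25, with a limma adjusted p of 0.926. Leaving out PBS replicate 1 lowered it to 0.40. Polr1a, the largest catalytic subunit, read 3.39 untreated, 3.66 and 3.55 with PBS, and 3.56, 3.77 and 3.82 with rHuEPO. Its groups overlapped, and its difference of 0.18 ± 0.17 was close to its SE.

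The promoter windows of the members whose groups did not overlap are shown so that the sequence upstream of the best separated genes can be read beside their values. Windows run from 250 bases before to 50 after the annotated start, 5′ to 3′ on the gene's strand, from RefSeq on GRCm38.p6. Of 26 genes with a probe 21 had a window in the table, and Polr3d was not among them. Capitals mark every match to any of 5 motifs on either strand: the E-box CACGTG bound by MYC and MAX, the GATA site AGATAA, the ETS site CCGGAAGT, the STAT site TTCNNNGAA and the palindromic NRF1 core. The Polr1e window lies at chr4:45018359-45018658 on the plus strand, the Polr1b window at chr2:129100746-129101045 on the plus strand, and the Polr2c window at chr8:94857200-94857499 on the plus strand.
Polr1e: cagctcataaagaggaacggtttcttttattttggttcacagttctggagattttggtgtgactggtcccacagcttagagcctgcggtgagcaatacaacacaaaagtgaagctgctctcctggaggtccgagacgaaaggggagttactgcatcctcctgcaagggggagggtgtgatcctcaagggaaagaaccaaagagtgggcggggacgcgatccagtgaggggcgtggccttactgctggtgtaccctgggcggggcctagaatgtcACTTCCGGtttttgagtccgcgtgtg
Polr1b: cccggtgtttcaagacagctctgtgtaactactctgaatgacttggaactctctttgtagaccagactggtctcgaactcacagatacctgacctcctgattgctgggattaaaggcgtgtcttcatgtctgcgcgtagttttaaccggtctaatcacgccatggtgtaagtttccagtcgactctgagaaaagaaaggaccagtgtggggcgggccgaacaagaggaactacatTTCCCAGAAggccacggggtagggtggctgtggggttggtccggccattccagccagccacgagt
Polr2c: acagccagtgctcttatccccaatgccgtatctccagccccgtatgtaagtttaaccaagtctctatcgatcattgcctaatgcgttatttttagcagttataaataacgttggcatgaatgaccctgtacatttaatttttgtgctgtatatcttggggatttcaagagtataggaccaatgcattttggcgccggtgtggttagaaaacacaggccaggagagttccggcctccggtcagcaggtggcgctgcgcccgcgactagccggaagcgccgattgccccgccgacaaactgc
The Polr1e window holds 1 ETS match, from 24 to 31 bases after the start, and the Polr1b window holds 1 STAT match, from 15 to 7 bases before it. The Polr2c window holds none of the 5. Over the 20 tested genes with a window, an E-box was found in 4 (Polr2h, Polr3c, Polr3e and Polr3gl), an ETS match in 5, a STAT match in 4, a GATA match in 1 and an NRF1 match in 0. Among all 27025 genes with a window the shares were 8.09%, 4.31%, 9.55%, 12.7% and 1.07%, in the same order. A match is a description of letters, not a site shown to be bound.

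Other polymerase I subunits carry older symbols in the RefSeq table and were listed beside the members. Cd3eap, the PAF49 partner of Polr1e, had a difference of 0.26 ± 0.22 with overlapping groups. Twistnb was at 0.075 ± 0.18 and Znrd1 at -0.024 ± 0.22. The differences of the polymerase I subunits thus ran from -0.024 to 0.65. A per-array median of Polr1a, Polr1b and Polr1e alone was taken as deviations from the control mean. On it the controls stood at 0.074, -0.25 and 0.18 and the rHuEPO arrays at 0.58, 0.51 and 0.55. Polr1b and Polr1e are themselves genes whose groups did not overlap, and Cd3eap, Twistnb and Znrd1 are left out of it. This median therefore adds no support beyond the values of those genes.

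Both subunits shared by polymerases I and III, which form a dimer at the base of the enzymes, lay on the higher side. Polr1d read 1.47 on the untreated array and 2.47 and 2.44 on the PBS arrays, and 2.23, 2.72 and 3.04 on the rHuEPO arrays. Within each slide the rHuEPO arrays were the higher ones, by 0.76 in slide 1 and 0.42 in slide 2, but rHuEPO replicate 1 lay below both PBS arrays. The difference was 0.54 ± 0.34 without the slide and 0.54 ± 0.15 with slide as a block, with limma adjusted p of 1.00 and 0.324. Without the untreated array, which was the low one, it was 0.21. A dimmer probe of Polr1d gave 0.16 ± 0.16, with all 3 rHuEPO arrays, at 1.89, 1.95 and 2.01, above the controls at 1.73, 1.80 and 1.85. Its partner Polr1c read 3.69 untreated, 3.82 and 3.82 with PBS, and 3.79, 4.08 and 4.09 with rHuEPO, a difference of 0.21 ± 0.17.

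The subunits common to all 3 enzymes had a median difference of 0.37, and all 5 lay above 0. Polr2l, the RPB10 subunit of the assembly platform, read 4.60 untreated, 5.21 and 5.24 with PBS, and 5.16, 5.43 and 5.71 with rHuEPO. Polr2h, the RPB8 subunit, read -0.87 untreated, -0.44 and -0.27 with PBS, and -0.54, 0.14 and 0.098 with rHuEPO. For both genes rHuEPO replicate 1 lay among the controls, while the other rHuEPO arrays lay above them. The differences were 0.42 ± 0.25 for Polr2l and 0.43 ± 0.26 for Polr2h, and with slide as a block their SE was 0.14 and 0.12. The blocked limma adjusted p was 0.371 and 0.329. Polr2f (RPB6) and Polr2e (RPB5) had differences of 0.37 ± 0.25 and 0.24 ± 0.21. Polr2k, the small zinc-binding RPB12 subunit, had one of 0.065 ± 0.30. Against PBS alone, with rHuEPO replicate 1 lacking a control on its slide, the difference was 0.21 for Polr2l, 0.26 for Polr2h, 0.18 for Polr2f, 0.085 for Polr2e and -0.17 for Polr2k. Against the same PBS arrays within slide 2 it was 0.35, 0.48, 0.34, 0.19 and 0.066, in the same order.

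Genes of polymerase II alone stood closest together, with differences from 0.052 to 0.21 and a median of 0.11 over 6 genes. Polr2c, the RPB3 subunit that pairs with Polr2j, read 3.96 untreated, 4.06 and 4.15 with PBS, and 4.24, 4.21 and 4.35 with rHuEPO. Its groups did not overlap, and its difference was 0.21 ± 0.16, 1.16-fold (limma adjusted p = 1.00). Polr2j, the RPB11 subunit, read 3.35 untreated, 4.0 and 3.91 with PBS, and 3.78, 3.87 and 4.0 with rHuEPO. The untreated array lay far below the rest, and the difference of 0.13 ± 0.22 was -0.069 against PBS alone, 0.44 within slide 1 and -0.018 within slide 2. Polr2b, the RPB2 catalytic subunit, read 2.61 untreated, 2.75 and 2.91 with PBS, and 2.63, 2.97 and 2.91 with rHuEPO. Its difference was 0.079 ± 0.18, and its dimmer probe gave the same value, 0.079 ± 0.19. The 95% interval for Polr2b ran from -0.35 to 0.51, so changes of up to 0.51 are not excluded by these arrays. Polr2i (RPB9), Polr2g (the RPB7 stalk subunit) and Polr2m (GDOWN1, a subunit that joins some polymerase II complexes) had differences of 0.16 ± 0.26, 0.053 ± 0.24 and 0.052 ± 0.18, against PBS alone of -0.068, -0.13 and -0.037, and against the same PBS arrays within slide 2 of 0.12, 0.017 and 0.029.

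**Figure D3:**
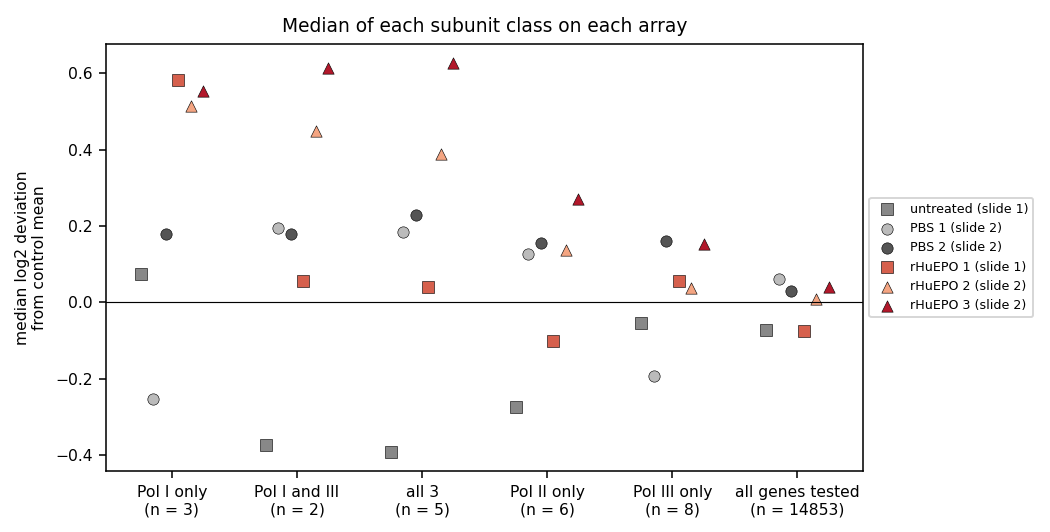
Each symbol is the median, over the genes of a subunit class, of the log2 signal on 1 array minus the control mean, with all genes tested at the right. For the polymerase I class, made of 3 genes (Polr1a, Polr1b and Polr1e), the rHuEPO arrays lie at 0.51 to 0.58, above controls at -0.25 to 0.18. Polr1b and Polr1e are themselves genes whose groups did not overlap, and Cd3eap, Twistnb and Znrd1 are left out of that class. In the polymerase III class the rHuEPO arrays lie among the controls.

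Polymerase III genes were spread on both sides of 0, from -0.21 to 0.67. Polr3d, the RPC4 subunit of the dimer that serves initiation and termination, had the highest difference of the 24 genes. It read 0.25 on the untreated array and -0.68 and 0.34 on the PBS arrays, and 0.89, 0.38 and 0.65 on the rHuEPO arrays. The groups did not overlap, though rHuEPO replicate 2 and PBS replicate 2 were only narrowly apart, and PBS replicate 1 was the low array, as for Polr1b. The difference was 0.67 ± 0.31, 1.59-fold (limma adjusted p = 1.00), and without PBS replicate 1 it was 0.35.

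Polr3e, the RPC5 partner of Polr3d, gave different answers by probe. Its brightest probe, which stands for the gene, read 0.30 untreated, 0.25 and 0.94 with PBS, and -0.22, 1.19 and 0.67 with rHuEPO, a difference of 0.048 ± 0.38. The dimmer probe read -0.68 untreated, -0.80 and -0.45 with PBS, and -0.38, -0.017 and 0.15 with rHuEPO. There every rHuEPO array exceeded every control array, with a difference of 0.56 ± 0.21. The brightest probe varied by 0.71 (SD, n = 3) among the rHuEPO arrays, the widest spread of any tested polymerase gene in that group.

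**Figure D4:**
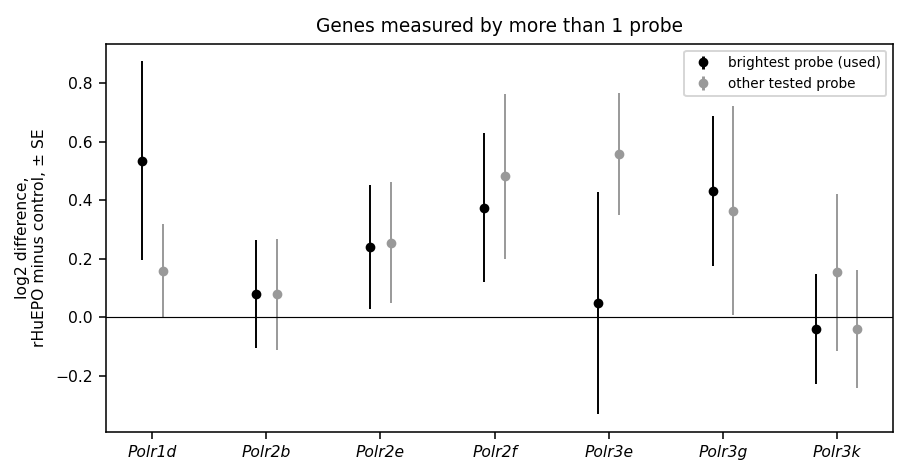
Each point is the log2 difference of 1 probe, rHuEPO minus control, with bars of 1 SE, for the 7 polymerase genes with more than 1 tested probe, and the black point is the brightest probe. Probes of Polr2b, Polr2e, Polr2f and Polr3g lie close together, those of Polr1d and Polr3e lie apart, and of the 3 probes of Polr3k 1 lies above 0.

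The paralogs Polr3g and Polr3gl encode alternative forms of the RPC7 subunit, of which the Polr3g form is known from stem and dividing cells. Polr3g read -0.86 untreated, -1.16 and -0.33 with PBS, and -0.31, -0.60 and -0.14 with rHuEPO, a difference of 0.43 ± 0.26. A dimmer probe gave 0.36 ± 0.36. Polr3gl read 1.53 untreated, 1.81 and 1.77 with PBS, and 1.33, 1.60 and 1.84 with rHuEPO, a difference of -0.11 ± 0.20. Groups overlapped for both paralogs, neither passed the test, and the difference between them was not tested.

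The catalytic pair of polymerase III had differences of opposite sign, both near their SE. Polr3a, the largest subunit, read 0.18 untreated, -0.26 and 0.011 with PBS, and 0.41, 0.014 and 0.16 with rHuEPO, a difference of 0.22 ± 0.20. Polr3b read 1.71 untreated, 1.69 and 1.84 with PBS, and 1.83, 1.41 and 1.38 with rHuEPO, a difference of -0.21 ± 0.19. Both slide 2 rHuEPO arrays of Polr3b lay below all controls, whereas rHuEPO replicate 1 did not, so its difference was -0.37 in slide 2 and 0.12 in slide 1. Polr3c, of the initiation subcomplex, and Polr3k, the RNA-cleaving RPC10 subunit, had differences of -0.044 ± 0.16 and -0.040 ± 0.19. Crcp, the RPC9 stalk subunit listed beside the members, had one of 0.31 ± 0.20, with readings of 1.71, 2.18 and 2.23 in the controls and 2.39, 2.28 and 2.40 after rHuEPO.

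No difference can be given for Polr3f, a gene of the initiation subcomplex. Its brighter probe exceeded background clearly (the scanner software's call) on 2 control arrays and 0 rHuEPO arrays. On no array did its other probe do so.

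More polymerase genes passed the test between slides than between treatments, as did more of all genes (10.6% against 0.0673%). The slide difference lay on the slide 2 side for 18 of the 24, against 60.4% of all genes. With slide and treatment in 1 limma fit, 4 of the 24 genes passed for slide after adjustment over all genes, all higher on slide 2, where 7.18% of all genes passed in that direction. They were Polr1d at 0.82 ± 0.16, Polr2i at 0.61 ± 0.13, Polr2k at 0.70 ± 0.15 and Polr2h at 0.59 ± 0.13 (SE, 4 against 2 arrays), with limma adjusted p of 0.0378, 0.0409, 0.0438 and 0.0464. For 13 of the 24 every slide 2 array lay above both slide 1 arrays, against 28.2% of all genes. This held for 5 of 5 common subunits, 5 of 6 polymerase II genes, 2 of 2 subunits shared by I and III, 0 of 3 polymerase I genes and 1 of 8 polymerase III genes. Polr2k read 2.12 and 2.18 on slide 1, against 2.69 to 3.01 on slide 2. Both slides hold the groups in equal proportion, so the differences given for 3 against 3 arrays are unmoved by the block while their errors shrink for these genes. Each slide had its own scan, so slide and scan cannot be told apart. Among the controls, slide also divides the untreated sample from the PBS samples, and the part of the PBS injection was not tested.

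**Figure D5:**
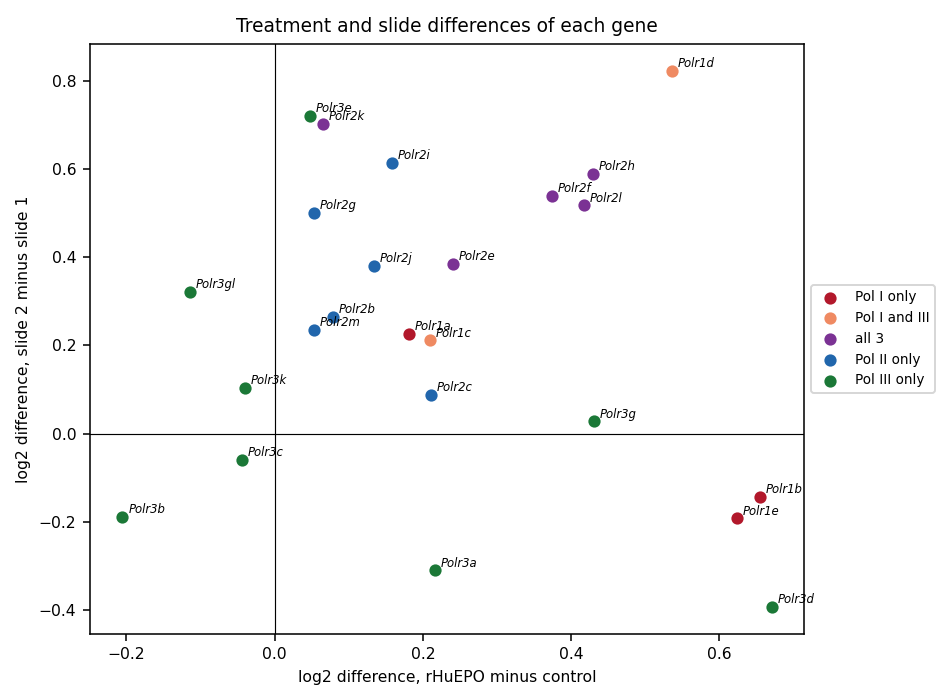
Each point is a tested polymerase gene, with its log2 difference for treatment (rHuEPO minus control) on the horizontal axis and for slide (slide 2 minus slide 1) on the vertical axis. Common subunits (purple) lie between 0.39 and 0.70 for slide, while Polr1b, Polr1e and Polr3d lie below 0 for slide and farthest right for treatment.

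Factors that work with the polymerases were taken as lists, beside all genes tested, of which 47.3% lay above 0 with a median of -0.015. None of their genes passed limma's test after adjustment, without or with slide as a block. Assembly factors, which put the enzymes together before nuclear import, had 13 of 13 tested genes above 0 and a median of 0.24. The smallest p values in that list were those of the GTPase genes Gpn2 (0.37 ± 0.16) and Gpn3 (0.32 ± 0.18) and the chaperone ATPase gene Ruvbl2 (0.42 ± 0.24). Polymerase I factors had 5 of 8 above 0 and a median of 0.14, with Rrn3, the growth-regulated initiation factor, at 0.49 ± 0.30, Ubtf at 0.26 ± 0.19 and Cavin1 at -0.45 ± 0.36. The general factors of polymerase II had 22 of 29 above 0 and a median of 0.13, with the kinase gene Cdk7 at 0.46 ± 0.20, Taf2 at -0.51 ± 0.23 and Gtf2h4 at 0.23 ± 0.16. Against PBS alone the medians were 0.17 for assembly factors, 0.14 for polymerase I factors and 0.035 for these general factors, beside -0.059 over all genes.

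Elongation factors of polymerase II had 15 of 26 above 0 and a median of 0.042, with the cyclin genes Ccnt2 at -0.63 ± 0.36 and Ccnk at 0.24 ± 0.17, and Tcea2 at 0.33 ± 0.26. Polymerase III factors had 10 of 16 above 0 and a median of 0.071. Among them Snapc4 stood at 0.39 ± 0.23 and Gtf3c4 at 0.39 ± 0.28, and Maf1, which represses the enzyme, at -0.27 ± 0.20. The mitochondrial polymerase gene Polrmt, whose enzyme is unrelated to the nuclear ones, was at 0.20 ± 0.20, and 3 of 4 genes of its list lay above 0. Against PBS alone the medians were -0.043 for elongation factors and 0.0034 for polymerase III factors, beside -0.059 over all genes.

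Marrow markers were read on the same arrays, where 47.3% of all genes lay above 0 with a median of -0.015. Erythroid markers were all measured, with 8 of 10 above 0 and a median of 0.39. For 3 of the 10, Tfrc and Rhag included, the rHuEPO arrays all exceeded the controls, against 5.01% of all genes. So they did for 2 of 9 monocyte and macrophage markers, 1 of 9 proliferation markers and 1 of 8 T and NK cell markers. In the neutrophil, B lineage, megakaryocyte and stroma lists the number was 0. The erythroid list also held markers near 0. The summed signal of the erythroid markers overlapped between groups, at 2074 to 2364 times the 75th percentile in controls and 2062 to 2427 after rHuEPO. The globin genes were near 0 in difference. Proliferation markers had a median of 0.0027, with 5 of 9 above 0 and sums of 275.0 to 379.6 and 279.9 to 357.2. Other lists had medians of -0.00245 (neutrophil lineage, 5 of 10 above 0), -0.23 (B lineage, 1 of 9), 0.059 (T and NK cells, 6 of 8), 0.31 (monocytes and macrophages, 7 of 9), -0.19 (megakaryocytes, 0 of 8) and -0.20 (stroma and endothelium, 3 of 8). Their sums overlapped between groups in every list. Some of these medians differed between slides. Megakaryocyte markers stood at -1.33 within slide 1 and 0.36 within slide 2, and stroma and endothelium markers at -1.02 and 0.35. B lineage markers stood at -0.51 within slide 1, -0.016 within slide 2 and 0.13 against PBS alone. Cd4 and Ncr1 were too dim to test. Between slides, 9 of 10 neutrophil markers were higher on slide 2 (median 0.31), as were 8 of 8 megakaryocyte markers (median 0.86), while 0 of 9 B lineage markers were (median -0.71). The part of these cell types in the polymerase values was not tested.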

How the data were processed

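Total RNA was labelled with Cy3, per the labels' protocols. Per the file headers, Agilent Feature Extraction 10.7.3.1 made the intensity of each spot, and its background-subtracted processed signal was used. The authors' deposited table of log2 values differed from the same signals, after 75th percentile scaling and removal of the probe median, by a median of at most 0.0121. The sources used here do not state that table's scaling.

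From the processed signals, log2 values minus each array's 75th percentile over gene spots were computed. Control spots (1639) and outlier spots were left out, and probes well above background on at least 3 of 6 arrays were tested (19590 of 41174). Symbols came from accessions matched without versions to RefSeq GRCm38.p6 (64.8% of probes), and the brightest tested probe stood for a gene. Tests used limma 3.58.1 in R 4.3.3 (lmFit, eBayes, two-sided, Benjamini-Hochberg over 14853 genes, threshold 0.05), tested on simulated data.

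Subunits and lists were chosen with earlier results of these data known, and roles come from background knowledge. Values on every array are given for the large subunits, the RPC7 paralogs, members whose groups did not overlap, and the 2 members of each class with the smallest p. Of other lists up to 3 genes with the smallest p are named. Replicate numbers are not stated to mark pairs. Alternatives were quantile and median scaling, normexp, other filters, the value table, PBS as the only control, slide or replicate number as a block, mean of probes, array weights, a trended prior and omission of single arrays. Normexp with replaced backgrounds was added after seeing the data. Some items are not reported here.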

Additional observations from a re-analysis of the deposited data

How the results depend on the processing

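No polymerase gene passed limma's test under any alternative that gives one. Polr1a to Polr1e, Polr2c, Polr2e, Polr2f, Polr2h, Polr2l, Polr3a, Polr3d and Polr3g kept a difference above 0 in the 16 distinct alternatives that can move it; of 21 run, 4 leave each difference identical and 1 repeats another. The count over all genes was 10, and it was 1 with normexp, 1 with no filter, 5 with the filter on all 6 arrays, 3 against PBS alone, 3 in slide 2 alone, 27 with array weights and 1 to 6 with 1 array left out. When single arrays were omitted, medians ran from 0.21 (without the untreated array) to 0.69 (without PBS replicate 2) for Polr1 genes, from 0.0031 to 0.30 for Polr2 genes, from -0.047 to 0.15 for Polr3 genes and from 0.097 to 0.30 for all 24. Polymerase genes with rHuEPO wholly above control numbered 5 to 12 then, where 5.98% to 15% of all genes did. The 12 came without rHuEPO replicate 1 (15% of all genes), and 13 came in slide 2 alone (18.2% of all genes).

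Under the replicate block the count over all genes was 1, the Polr1 median 0.26, and differences were -0.0033 for Polr2b, -0.14 for Polr2g, -0.0068 for Polr2i, -0.17 for Polr2k, -0.065 for Polr2m, 0.039 for Polr3c and -0.18 for Polr3e. Same-numbered PBS and rHuEPO samples deviated from their group means with correlations of -0.071 and -0.16. The deviations of the 2 PBS arrays mirror each other, and PBS replicate 1 and rHuEPO replicate 1 were on different slides. These correlations therefore cannot decide whether the number marks a pair. Against PBS alone the Polr1 median was 0.21, and differences were -0.13 for Polr2g, -0.068 for Polr2i, -0.069 for Polr2j, -0.17 for Polr2k, -0.037 for Polr2m and -0.052 for Polr3e. Within slide 1 the Polr1 median was 0.32, with Polr3b at 0.12, Polr3c at 0.026 and Polr3e at -0.51, and within slide 2 Polr2j was at -0.018.

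Normexp as planned raised the medians to 0.49 for all 24, 0.58 for Polr2 and 0.21 for Polr3, with Polr3b at 0.16, Polr3gl at 0.17 and Polr3k at 0.46. It left PBS replicate 2 with a 75th percentile of 871.2, against 286.6 to 335.0 elsewhere, where 28 spots with non-uniform backgrounds reach a local background of 62790.5; none of them is a polymerase spot. With those backgrounds replaced the percentile was 311.1, the count over all genes 7 and the medians 0.42 for Polr1, 0.18 for Polr2 and 0.078 for Polr3, with Polr2m at -0.0075 and Polr3k at 0.052. Polr2m was at -0.011 with quantile scaling and -0.011 with array weights, Polr3c at 0.029 and Polr3k at 0.034 with median scaling, and Polr3k at 0.025 with the mean of probes. With 1 array left out the ranges of the genes that changed sign were -0.13 to 0.20 for Polr2g, -0.068 to 0.34 for Polr2i, -0.069 to 0.26 for Polr2j, -0.17 to 0.30 for Polr2k, -0.039 to 0.12 for Polr2m, -0.087 to 0.035 for Polr3c, -0.27 to 0.43 for Polr3e, -0.24 to 0.014 for Polr3gl and -0.13 to 0.074 for Polr3k. Apart from normexp as planned, which was rerun with replaced backgrounds, the cause of these changes was not tested.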
